A study of Mus musculus with 151 samples.

Results

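The nuclear genes for the subunits of the 5 oxidative phosphorylation complexes were followed in single inner hair cells (IHCs) of the mouse cochlea and in cells derived from them. Symbols were taken that began with Nduf (letters a, b, c, s or v and a digit), Sdh (a to d), Uqcr, Cox (digits 4 to 8) or Atp5. Of 55291 gene rows, 101 matched, 13 entries named as pseudogenes or antisense genes were left out, and 88 members remained. Of these, 76 had a mean of at least 10 counts per 1000000 counts (CPM) over the 3 group means. The lowest group mean among the 76 was 15.7 CPM (Ndufb2 in P14_WT IHC), so none of them had passed through 1 group alone. The remaining 12 were 7 tissue-restricted or testis-type isoforms of complex IV, Cox6c2, which GENCODE lists as a processed pseudogene copy of Cox6c, and 4 copies or paralogues of complex I genes.

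The 151 cells formed 3 groups, all of strain C57BL/6 and all carrying vGlut3-P2A-iCreER/+ and Ai9/+. In such mice the Slc17a8 locus, active in IHCs, drives a tamoxifen-dependent Cre, and cells in which Cre has acted become Tdtomato+. The groups were 50 IHCs at postnatal day 30 (P30_WT IHC), 55 IHCs at postnatal day 14 (P14_WT IHC) and 46 induced outer hair cells at postnatal day 14 (P14_iOHC). The genotype of the P14_iOHCs also held Tbx2 flox/-, that is 1 germline null and 1 conditional allele of Tbx2, a T-box transcription factor of IHCs. Per the study's methods, Cre was induced in the first days after birth, Tdtomato+ cells were picked by hand, and in the Tbx2 mutants the smaller cells were picked as iOHCs while larger, unconverted cells were not. The P14_iOHCs were therefore selected on size, and no wild-type outer hair cell (OHC) was among the libraries. Nothing tied a cell to a mouse or gave the number of mice, so each group was treated as 1 sample. No test was made between groups, and every ± below is the SD over cells of 1 group.

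Complex I (NADH dehydrogenase) and complex II (succinate dehydrogenase) pass electrons to ubiquinone, complex III passes them to cytochrome c, and complex IV (cytochrome c oxidase) passes them to oxygen. Complexes I, III and IV pump protons, and complex V (ATP synthase) uses the proton gradient to make ATP. Complexes I, III, IV and V each hold subunits encoded in the mitochondrial genome beside nuclear ones, whereas complex II is built from nuclear genes only. Hair cells depend on mitochondria for ion pumping and, in IHCs, for sustained release of glutamate at ribbon synapses.

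Total counts per cell ranged from 4326416 to 25035444. Totals fell into a lower set (16 of 55 P14_WT IHCs, 12 of 46 P14_iOHCs and 23 of 50 P30_WT IHCs) and an upper set. The labelled identities were checked against 5 IHC and 5 OHC markers. All 5 IHC markers were lower by over 1.5-fold in P14_iOHC than in P14_WT IHC, with Tbx2 itself at 260 ± 127 CPM in P14_WT IHC and 69.3 ± 87.4 CPM in P14_iOHC, gene counts that do not resolve the floxed exon. All 5 OHC markers, Slc26a5 and Ikzf2 included, were higher. Supporting-cell markers that passed the level filter were mostly higher too. Of 20 such markers, 9 passed the filter, and 8 of these were higher by over 1.5-fold in P14_iOHC, beside 21.9% of all genes. A marker could pass the filter through P14_iOHC alone, so this count is not read as a result about the whole list. Their summed level ranged from 2281 to 19555 CPM in P14_iOHC and from 3800 to 9148 CPM in P14_WT IHC, most of it from Fbxo2 (5465 and 5423 CPM), which hair cells express too. Prox1 was at 0 in every cell of both groups, Npy was at 0 in P14_iOHC, and Sox2 averaged 9.54 and 4.28 CPM. Of 10 general hair cell markers 2 were lower by over 1.5-fold in P14_iOHC. Among markers past the filter, 1 of 2 glial ones and 2 of 4 of fibroblasts were higher by that fold, 2 of 3 neuronal ones were lower, and none of blood or immune cells passed. In P30_WT IHC, 4 of 9 supporting-cell markers were lower by over 1.5-fold than in P14_WT IHC and none was higher by that fold. Over all genes, 17.3% were lower and 12.6% higher by that fold. In 16 P14_iOHCs the supporting-cell score exceeded that of every P14_WT IHC, so results are also given without them.

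Levels between genes were compared per length, as transcripts per 1000000 (TPM) from exon lengths. Within complex I the highest mean level over groups was that of Ndufa1 (3327 TPM), followed by Ndufa2 (1937 TPM). In complex III it was Uqcr11 (2617 TPM), followed by Uqcr10 (1362 TPM), and in complex IV Cox8a (5032 TPM), followed by Cox6a1 (3254 TPM). Complex V was led by Atp5h (1065 TPM) and Atp5mpl (1011 TPM). The 2 leading genes of complex II, Sdhb (435 TPM) and Sdhd (315 TPM), lay well below these. On this scale small accessory subunits led complexes I, III and IV. The large core subunit Ndufs1 had 34.6 TPM. These ranks depend on the exon lengths, which count every annotated exon base (419 for Ndufa1, 619 for Cox8a and 8086 for Ndufs1). By CPM, complex V was led by Atp5b, with a mean over groups of 1500 CPM, beside 676 CPM for Atp5h.

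The tissue isoforms of complex IV were nearly silent in all 3 groups. Cox4i1, the usual isoform of the regulatory subunit 4, made up 99.9% of the Cox4i TPM in P14_WT IHC, 99.4% in P14_iOHC and 99.9% in P30_WT IHC. Cox4i2, an isoform known from lung, had a count in 4 of 55, 10 of 46 and 6 of 50 cells in that order. Cox6a1 took the whole of its family, with the muscle isoform Cox6a2 detected in 1 cell of 151, and Cox7b2 was detected in none. The heart and muscle isoform Cox7a1 was the largest of the minor forms, at 1.82% of the Cox7a TPM in P14_WT IHC, 3.84% in P14_iOHC and 1.26% in P30_WT IHC. It was detected in only 22, 21 and 10 cells of these groups.

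The c ring of ATP synthase is built from 1 mature protein encoded by 3 genes, which differed in level. Atp5g3 held 57.2% of the TPM of the 3 in P14_WT IHC, 54.8% in P14_iOHC and 49.7% in P30_WT IHC. Atp5g2 held 24.1%, 28.7% and 31.9%, and Atp5g1 held 18.7%, 16.5% and 18.4%. The order Atp5g3, Atp5g2, Atp5g1 was the same in all 3 groups, but it rests on the exon lengths used (2181, 1675 and 4912 bases). In CPM, Atp5g1 was above Atp5g2 in each group. The means were 464 and 202 CPM in P14_WT IHC, 330 and 195 CPM in P14_iOHC, and 304 and 180 CPM in P30_WT IHC.

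The summed level of the 88 members was the same in P14_iOHC and P14_WT IHC to within the spread over cells, and lower in P30_WT IHC. It was 32811 ± 3972 CPM in P14_WT IHC (n = 55 cells, 20837 to 41559), 32727 ± 4954 CPM in P14_iOHC (n = 46, 21989 to 43001) and 25995 ± 5586 CPM in P30_WT IHC (n = 50, 8586 to 38365). If 1 cell was drawn from each group, the P14_iOHC had the higher sum in 48.5% of pairs, and the P14_WT IHC was above the P30_WT IHC in 84.0%, where 50% would mean no separation. Of the 50 P30_WT IHCs, 43 lay below the median P14_WT IHC, and 8 lay below every P14_WT IHC.

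The 5 complexes did not share 1 ratio. Complexes were assigned by symbol, so complex I counts and sums here and below hold Ndufa4, known as a subunit of complex IV. Ndufa4 was at 677 CPM in P14_WT IHC, 837 CPM in P14_iOHC and 627 CPM in P30_WT IHC. Sums without Ndufa4 are not given. Against P14_WT IHC, the mean sum in P14_iOHC was 1.06 times as high for complex I, 0.839 times for complex II, 1.01 times for complex III, 1.02 times for complex IV and 0.935 times for complex V. In P30_WT IHC it was 0.844 times as high for complex I, 0.798 for complex II, 0.737 for complex III, 0.826 for complex IV and 0.736 for complex V. These ratios are relative to total counts: with DESeq2 size factors (poscounts) they were 1.07, 1.03, 0.942, 1.05 and 0.948 in the same order, and 1.01 for all members, so the direction turned for all members and for complexes I, II and IV. For P14_iOHC the same size factors gave 1.20, 0.962, 1.14, 1.15 and 1.05, so the direction turned for complex V. Complexes III and V overlapped least: 18 and 19 of 50 P30_WT IHCs lay below every P14_WT IHC, compared with 4 for complex I, 2 for complex II and 2 for complex IV. Complex I made up 32.5% ± 1.99 of the members' CPM in P14_WT IHC, 34.4% ± 2.23 in P14_iOHC and 34.5% ± 2.25 in P30_WT IHC. Complex V made up 32.7% ± 2.33, 30.8% ± 2.39 and 30.4% ± 2.33.

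**Figure D1:**
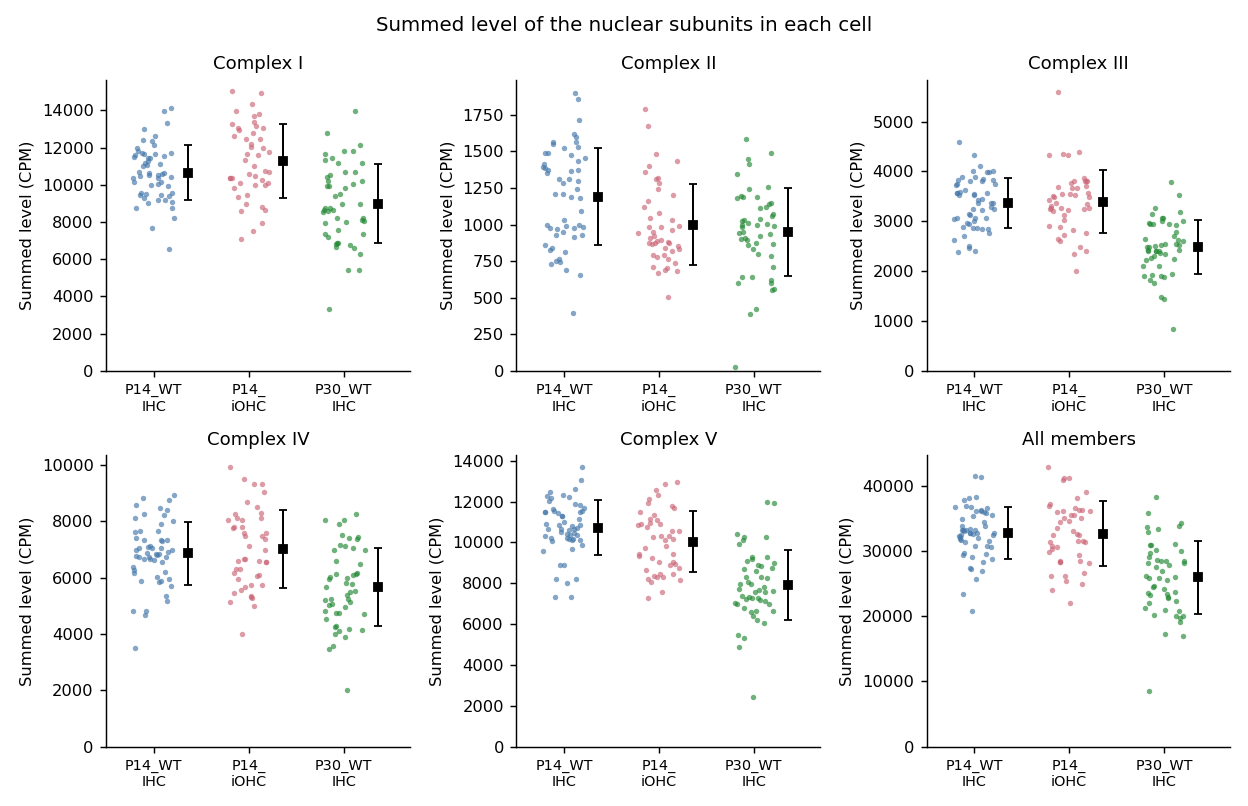
Summed level in CPM (vertical axes, from 0) of the nuclear subunits of each complex and of all members in every cell, by group; squares and bars are the mean ± SD over 55, 46 and 50 cells. P14_WT IHC and P14_iOHC cover the same range for all members, and most P30_WT IHCs lie lower, down to 8586 CPM.

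In P14_iOHC most members had a mean within 1.5-fold of that in P14_WT IHC. The median log2 ratio of group means over the 76 members was -0.03, beside 0.03 over the 8756 genes past the level filter. The quartiles of the members lay at -0.17 and 0.14, and those of all these genes at -0.43 and 0.49. Past 1.5-fold, 4 of 76 members were higher and 0 were lower, where 21.9% of all genes were higher and 19.3% lower. All 4 were of complex I, with Ndufb4, Ndufa8 and Ndufa5 the highest. In complex I, 16 of 36 members were higher and 20 lower. Median log2 ratios were -0.02 for complex I, -0.26 for complex II, -0.04 for complex III, 0.10 for complex IV and -0.05 for complex V.

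**Figure D2:**
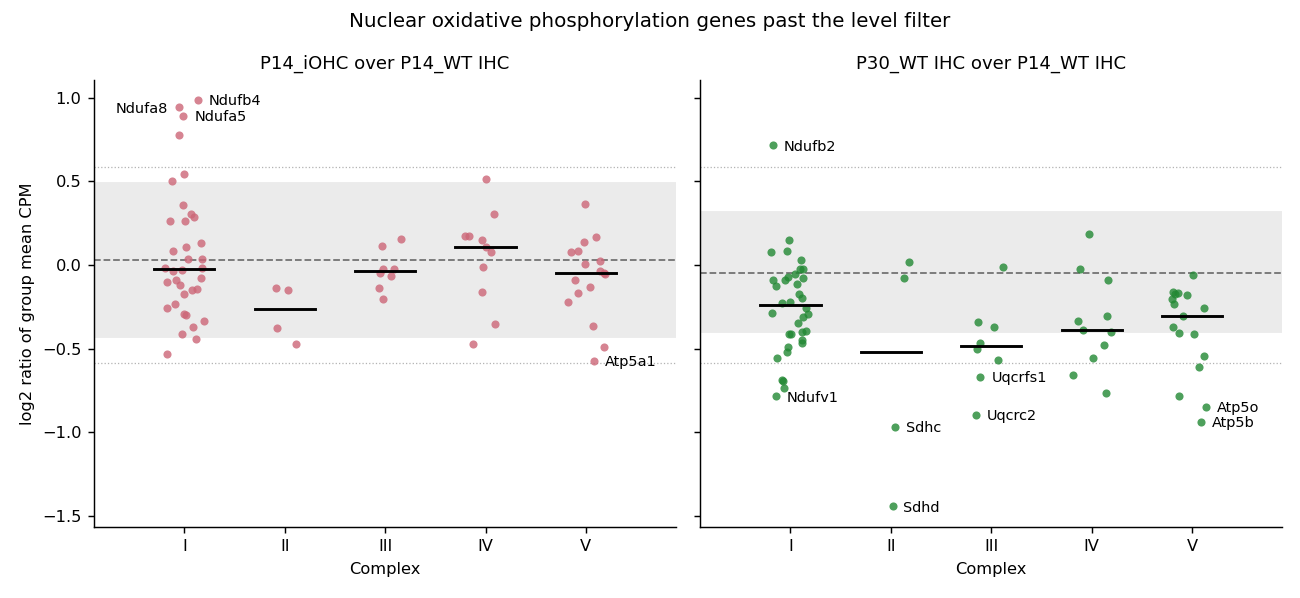
Each point is 1 member past the level filter, placed by complex and by the log2 ratio of group mean CPM, for P14_iOHC (left) and P30_WT IHC (right), both over P14_WT IHC. Black bars are medians by complex, the dashed line and grey band are the median and quartiles of 8756 genes, and dotted lines mark 1.5-fold. Ndufb4, Ndufa8 and Ndufa5 lie farthest above the upper dotted line at left, and 14 members lie below the lower one at right.

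Ndufb4, an accessory subunit of the membrane arm, differed most. It was at 294 ± 81.0 CPM in P14_WT IHC (n = 55, lowest 116, median 298, highest 503), 582 ± 212 CPM in P14_iOHC (n = 46, 231, 581 and 1104) and 309 ± 114 CPM in P30_WT IHC (n = 50, 1.81, 295 and 620). The groups overlapped, but 27 of 46 P14_iOHCs lay above every P14_WT IHC and none lay below all of them. The log2 ratio was 0.99, and the P14_iOHC was higher in 90.3% of pairs of cells. Ndufb4 (chr16:37647170-37654453, minus strand, 3 merged exons) has a processed copy, Ndufb4c, identical over 390 bases. Ndufb4c was at 2.80 CPM in P14_WT IHC and 7.84 CPM in P14_iOHC, so reads placed there were few beside those of Ndufb4.

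Ndufa8, an accessory subunit of the intermembrane-space side, was at 188 ± 64.8 CPM in P14_WT IHC (64.6, 191 and 337 as lowest, median and highest) and 362 ± 163 CPM in P14_iOHC (89.8, 359 and 755). Of the P14_iOHCs, 27 lay above every P14_WT IHC, the log2 ratio was 0.94, and the P14_iOHC was higher in 83.9% of pairs. Ndufa5, an accessory subunit of the matrix arm, was at 283 ± 101 CPM (108, 274 and 626) and 525 ± 183 CPM (137, 502 and 1085). Here 13 P14_iOHCs lay above every P14_WT IHC and 44 lay above their median, with a log2 ratio of 0.89 and 89.0% of pairs. In 38 of 46 P14_iOHCs, Ndufb4, Ndufa8 and Ndufa5 were all above the P14_WT IHC median, as they were in 8 of 55 P14_WT IHCs and 3 of 50 P30_WT IHCs. These genes were chosen for the highest log2 ratios between the same P14_iOHCs and P14_WT IHCs. A high count in P14_iOHC therefore follows from the choice and is a description only.

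Without the 16 P14_iOHCs of high supporting-cell score, the log2 ratios were 1.15 for Ndufb4, 0.97 for Ndufa8 and 0.97 for Ndufa5, as large as with them. Also among the 6 highest were Ndufs8, a core iron-sulphur subunit (157 ± 90.3 and 228 ± 111 CPM, log2 ratio 0.54), and Cox6c of complex IV (494 ± 113 and 706 ± 202 CPM, log2 ratio 0.52). Cox6c was under 1.5-fold, yet 15 P14_iOHCs lay above every P14_WT IHC and it was higher in 84.2% of pairs. Along with Ndufb4, Ndufa5, Ndufa8 and Ndufa3 (75.8%, named here after its values were seen), it was 1 of 5 members higher in at least 75% of pairs, a share that 4.34% of all genes reached.

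**Figure D3:**
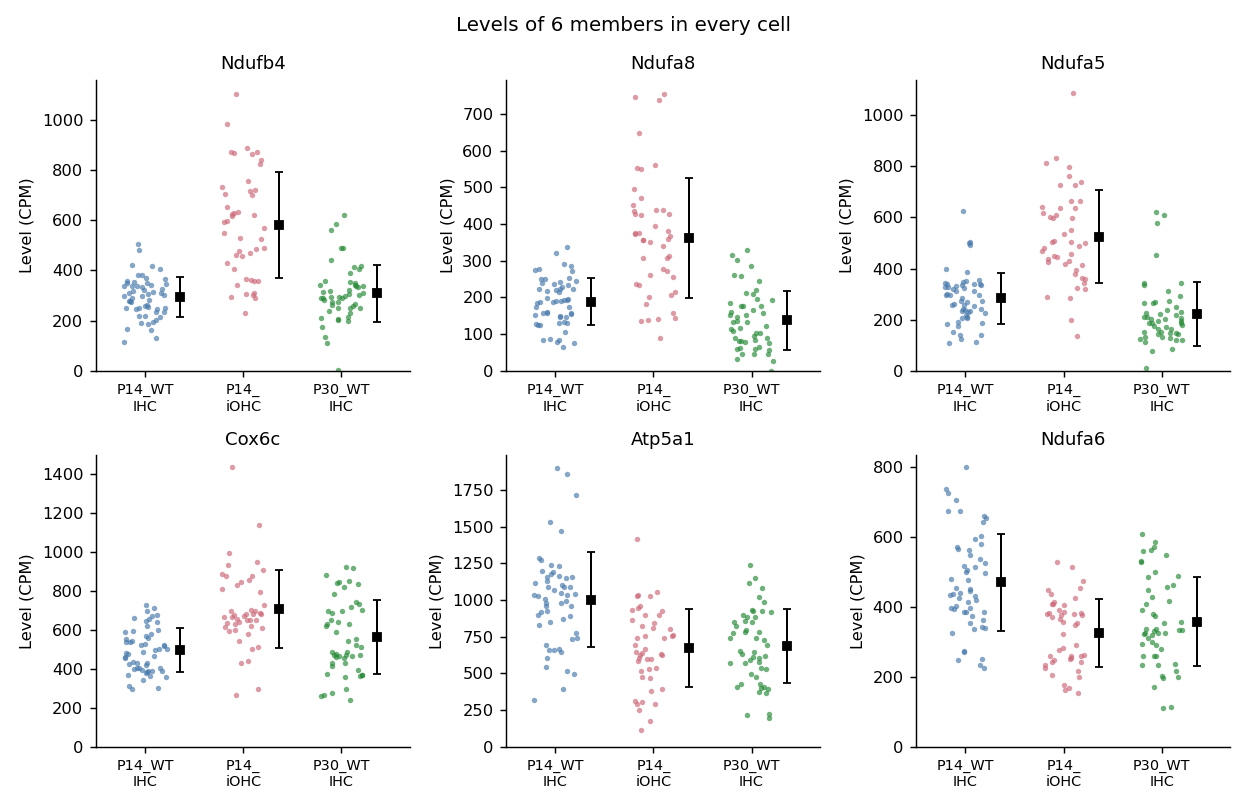
Level in CPM (vertical axes, from 0) of 6 members in every cell of the 3 groups; squares and bars are the mean ± SD over 55, 46 and 50 cells. Ndufb4, Ndufa8 and Ndufa5 are shifted upward across most P14_iOHCs, Cox6c has 15 P14_iOHCs above every P14_WT IHC, and Atp5a1 and Ndufa6 are lower in P14_iOHC and P30_WT IHC than in P14_WT IHC.

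Nuclear respiratory factor 1 (NRF-1) is a transcription factor known to bind many promoters of respiratory chain genes. The promoters of Ndufb4, the member with the highest log2 ratio in P14_iOHC, and of Atp5b, which encodes the catalytic beta subunit of complex V and was among the lowest in P30_WT IHC, were searched in the 250 bases before the RefSeq start in GRCm38.p6. GENCODE starts both genes farther upstream, so each line gives only the part of that window before the first GENCODE exon, read 5′ to 3′ on the gene's strand, with matches to the NRF-1 type letters CGCANGCGC on either strand in capitals.
Ndufb4, chr16:37654454-37654618, minus strand: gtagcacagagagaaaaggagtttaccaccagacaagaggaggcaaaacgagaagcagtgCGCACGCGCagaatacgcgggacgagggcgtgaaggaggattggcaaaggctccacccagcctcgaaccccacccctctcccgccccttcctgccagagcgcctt
Atp5b, chr10:128083057-128083272, plus strand: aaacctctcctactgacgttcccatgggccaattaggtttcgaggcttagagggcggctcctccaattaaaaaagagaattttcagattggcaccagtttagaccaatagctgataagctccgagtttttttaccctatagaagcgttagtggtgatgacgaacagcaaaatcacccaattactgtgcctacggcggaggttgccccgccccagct
Ndufb4 held 1 match in the bases shown and 2 more in the 85 bases left out, which lie in its GENCODE exon. Atp5b held none in its whole window. Ndufa8 held 2 matches and Ndufa5 held 1, all in bases that GENCODE places in their own exons, and the 1 match of Sdhd lay in an exon of its neighbour Timm8b, so these windows are not shown. Of the 76 members, 64 had a window, of which 39 held bases of the gene's own GENCODE exons, and 16 of these (25.0%) held a match, compared with 13.7% of the 6944 windows of genes past the level filter and 5.4% of all 27025 windows. For 5 members RefSeq gave several starts and the first listed was used, and with the start farthest upstream, tried after seeing the data, the count was also 16. Median GC content was 57.0% in the members' windows, 60.8% in those past the filter and 52% in all. The ETS type letters CCGGAAG, on either strand, occurred in 17.2% of the members' windows and 15.9% of those past the filter, and the YY1 type letters AAGATGGC in 0 of 64 and 2.33%. A match describes letters only and is not evidence of binding.

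At the lower end in P14_iOHC stood Atp5a1, the alpha subunit of ATP synthase. It was at 1000.2 ± 323 CPM in P14_WT IHC (316, 1027 and 1896) and 672 ± 269 CPM in P14_iOHC (116, 655 and 1414), a log2 ratio of -0.57 and so just under 1.5-fold. Of 46 P14_iOHCs, 41 lay below the P14_WT IHC median and 7 below every P14_WT IHC. Ndufa6, an accessory subunit of complex I, was at 470.2 ± 138 CPM (224, 445 and 798) and 325 ± 97.7 CPM (152, 351 and 528), with a log2 ratio of -0.53 and 8 P14_iOHCs below every P14_WT IHC. The others of the lowest 6 were Atp5g1 (log2 ratio -0.49), Cox7b (-0.47), Sdhc (-0.47) and Ndufa9 (-0.44). Ndufa6, Atp5a1, Atp5g1 and Cox7b were among 7 members lower in at least 75% of pairs, beside 5.63% of all genes. This count was 4 with TMM factors, 0 with DESeq2 size factors (poscounts) and 2 without the 16 P14_iOHCs of high supporting-cell score.

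Over all cells of each group, all 4 subunits of complex II had a mean below that of P14_WT IHC, none by 1.5-fold. The flavoprotein Sdha, which oxidises succinate, was at 359 ± 160 CPM in P14_WT IHC and 277 ± 167 CPM in P14_iOHC (log2 ratio -0.38), and the iron-sulphur subunit Sdhb at 441 ± 159 and 401 ± 167 CPM (-0.14). The membrane anchor Sdhc was at 172 ± 92.5 and 124 ± 62.1 CPM and its partner Sdhd at 218 ± 112 and 196 ± 121 CPM (-0.15). The direction of Sdhc and Sdhd changed with the cells used. In the lower set of totals their log2 ratios were 0.12 and 0.55, and in the upper set -0.68 and -0.40. With other scalings that of Sdhd ranged from -0.16 to 0.08. Among other core subunits, the log2 ratio was 0.11 for Ndufv1, -0.26 for Ndufs1, -0.14 for Uqcrc1, -0.20 for Uqcrc2, -0.07 for Uqcrfs1, -0.01 for Cox4i1, 0.30 for Cox5a and -0.22 for Atp5b. All 3 genes of the c ring were lower, with log2 ratios of -0.49 for Atp5g1, -0.37 for Atp5g3 and -0.05 for Atp5g2.

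Across the 46 P14_iOHCs, Ndufb4 followed Ocm, which encodes the OHC calcium-binding protein oncomodulin (this relation was chosen after its values were seen). Pearson's r over CPM was 0.752 and Spearman's rho 0.808. Of the genes past the level filter, none had a higher rho with Ndufb4 than Ocm. With the 2 cells left out whose Ocm lay farthest from its median, rho was 0.789 (n = 44), and without the cells of high supporting-cell score it was 0.677 (n = 30). Within the upper and the lower set of totals rho was 0.834 (n = 34) and 0.762 (n = 12). In P14_WT IHC and P30_WT IHC it was -0.085 and -0.152. With Ocm, rho was 0.520 for Ndufa8 and 0.436 for Ndufa5, the median over the 76 members was 0.194 and that over all genes past the level filter was -0.129. Ndufb4 ran against the supporting-cell marker score (rho -0.448). All points share library totals, of which Ocm alone took a mean of 37457 CPM, so these values describe the cells picked and their part in the difference was not tested.

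**Figure D4:**
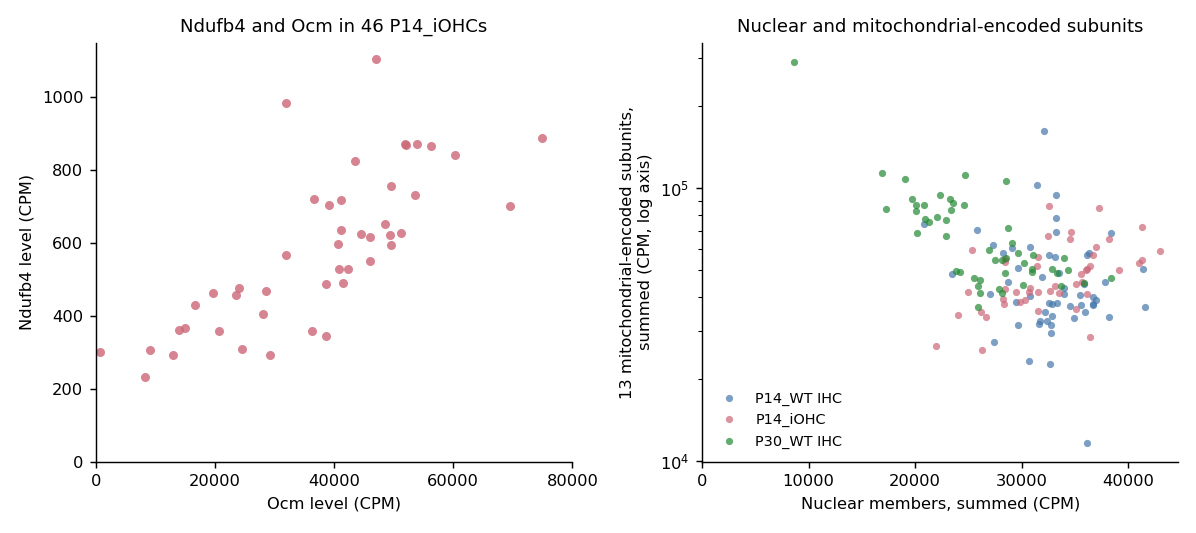
Left, Ndufb4 against Ocm, both in CPM, in 46 P14_iOHCs, with a Spearman's rho of 0.808. Right, the summed CPM of 13 mitochondrial-encoded subunits (log axis) against the summed CPM of the nuclear members in every cell of the 3 groups; P30_WT IHCs extend to the upper left, with 1 cell at 8586 CPM of nuclear members.

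Between postnatal days 14 and 30, the members were lower in wild-type IHCs as a group. Of 76 members, 69 had a lower mean in P30_WT IHC than in P14_WT IHC, beside 53.5% of the 8756 genes. The median log2 ratio was -0.32 over the members and -0.05 over these genes. Past 1.5-fold, 14 members were lower and 1 was higher, where 17.3% of all genes were lower and 12.6% higher, so the share of members past that fold (14 of 76) was near the background. In contrast, 65 of 76 members lay below the median of all genes. Moreover, 17 members were lower in at least 75% of pairs of cells and 0 were higher, beside 2.67% and 0.857% of all genes. With DESeq2 size factors (poscounts) 2 members were lower in that share of pairs, and the share of all genes is not given. Here and for P14_iOHC, the genes set beside the members reach down to 10 CPM and were not matched to the members for level. Both comparisons used the same 55 P14_WT IHCs, and their values are therefore given side by side and not related to each other.

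This difference was a relative one. With DESeq2 size factors (poscounts) in place of totals, the median of all genes moved to 0.32 and that of the members to 0.02, which turned the direction of the members while leaving them 0.30 below all genes. Over all scalings, filters and subsets of cells, the members' median lay between 0.16 and 0.33 below that of all genes. With those size factors 1 member, Sdhd, remained lower by over 1.5-fold, beside 8.01% of all genes. The lower set of totals was more frequent in P30_WT IHC, and there 27 of 75 members were lower by over 1.5-fold, compared with 10 of 76 in the upper set. The shares of all genes within these sets are not given here. These counts are therefore not read as a result about the members.

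The membrane anchor of complex II differed most. Sdhd was at 218 ± 112 CPM in P14_WT IHC (0, 216 and 506 as lowest, median and highest, n = 55) and 80.3 ± 85.9 CPM in P30_WT IHC (0, 62.7 and 383, n = 50). The P14_WT IHC level was 2.72 times as high, a log2 ratio of -1.44 for P30_WT IHC. Of 50 P30_WT IHCs, 48 lay below the P14_WT IHC median, although the ranges overlapped and 4 P30_WT IHCs and 1 P14_WT IHC had no count. Sdhc was at 172 ± 92.5 CPM (0.752, 164 and 487) and 87.9 ± 66.5 CPM (0, 80.3 and 241), a log2 ratio of -0.97. The catalytic subunits did not share this: Sdha was at 359 ± 160 and 364 ± 231 CPM (log2 ratio 0.02) and Sdhb at 441 ± 159 and 418 ± 188 CPM (-0.08). Over all scalings and subsets of cells, the log2 ratio of Sdhd ranged from -1.78 to -1.08 and that of Sdhc from -1.09 to -0.56.

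In ATP synthase, Atp5b, the catalytic beta subunit, was at 1891 ± 568 CPM in P14_WT IHC (679, 1911 and 3266) and 988 ± 406 CPM in P30_WT IHC (281, 904 and 1813). All 50 P30_WT IHCs lay below the P14_WT IHC median and 13 lay below every P14_WT IHC, with a log2 ratio of -0.94. Atp5o, the peripheral-stalk subunit that confers oligomycin sensitivity, was at 456 ± 121 CPM (107, 452 and 741) and 253 ± 133 CPM (32.6, 238 and 654), a log2 ratio of -0.85. Atp5g3 was at 628 ± 140 CPM (336, 623 and 990) and 365 ± 131 CPM (133, 363 and 663). It was lower in P30_WT IHC in 91.2% of pairs, the highest such share of the members, with 21 P30_WT IHCs below every P14_WT IHC. All 17 complex V members had a lower mean, 4 of them by over 1.5-fold (Atp5b, Atp5o, Atp5g3 and Atp5g1). Atp5a1 was just under that fold (1000.2 ± 323 and 685 ± 251 CPM, log2 ratio -0.55), and Atp5g2 was close to its earlier level (202 ± 59.6 and 180.0 ± 75.2 CPM).

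**Figure D5:**
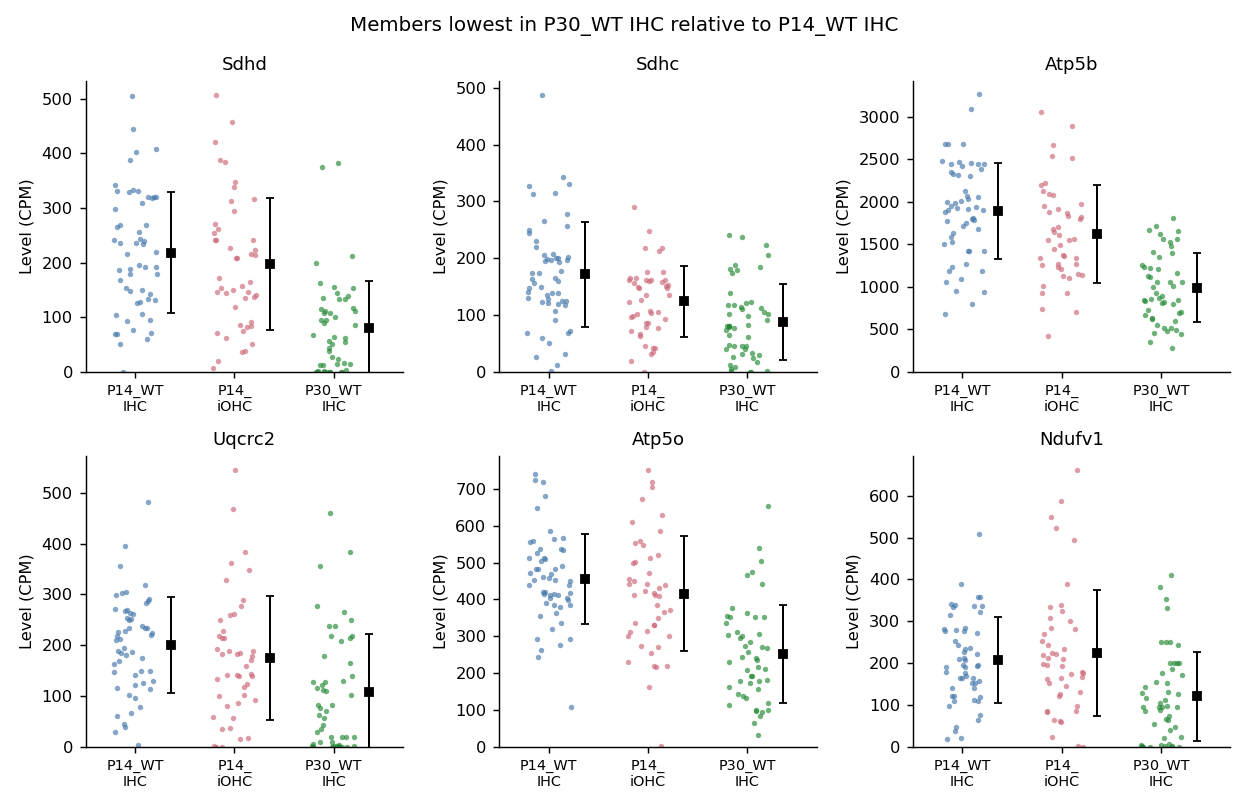
Level in CPM (vertical axes, from 0) of the 6 members with the lowest log2 ratio of P30_WT IHC over P14_WT IHC, in every cell of the 3 groups; squares and bars are the mean ± SD over 55, 46 and 50 cells. The groups overlap for all 6, and for Atp5b all 50 P30_WT IHCs lie below the P14_WT IHC median of 1911 CPM.

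In complex III, all 8 members had a lower mean, 2 of them by over 1.5-fold. Uqcrc2, a core protein of the matrix side, was at 201 ± 94.8 CPM in P14_WT IHC (3.44, 212 and 483) and 108 ± 114 CPM in P30_WT IHC (0, 78.6 and 460.5), a log2 ratio of -0.90. Its spread in P30_WT IHC was as large as its mean, and 5 cells there had no count. Its exons overlap those of Pdzd9 on the opposite strand, which averaged under 2 CPM in each group. The Rieske iron-sulphur subunit Uqcrfs1 was at 286 ± 134 and 180 ± 119 CPM (log2 ratio -0.67) and the core protein Uqcrc1 at 350 ± 171 and 253 ± 141 CPM (-0.47). The small subunits Uqcr11 and Uqcr10 had log2 ratios of -0.34 and -0.50.

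In complex IV, 10 of 11 members had a lower mean. Cox5a, a subunit of the matrix side, was at 196 ± 71.4 CPM in P14_WT IHC (53.4, 208 and 331) and 115 ± 57.1 CPM in P30_WT IHC (8.22, 101 and 254), a log2 ratio of -0.77. Cox4i1 was at 992 ± 229 CPM (501, 970.0 and 1660.03) and 630 ± 231 CPM (205, 624 and 1130.3), a log2 ratio of -0.66. Cox8a, the member with the highest TPM, hardly differed (1308 ± 295 and 1288 ± 349 CPM), and Cox6c was the exception with a higher mean (494 ± 113 and 562 ± 191 CPM, log2 ratio 0.19). Cox7a2l, which takes part in joining complexes III and IV into supercomplexes, had a log2 ratio of -0.40.

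In complex I, 31 of 36 members had a lower mean, 4 of them by over 1.5-fold. The flavin-binding core subunit Ndufv1 was at 207 ± 103 CPM in P14_WT IHC (18.6, 195 and 509) and 120 ± 107 CPM in P30_WT IHC (0, 95.9 and 410), a log2 ratio of -0.79. The other 3 were Ndufb9, Ndufa1 and Ndufa9, with log2 ratios of -0.74, -0.69 and -0.69. The median log2 ratio was -0.49 over the 7 core subunits and -0.22 over 28 accessory subunits. Ndufs1 (-0.02) was close to its level in P14_WT IHC. Of the members higher in P14_iOHC, Ndufb4 had a log2 ratio of 0.08 here, Ndufa8 of -0.45 and Ndufa5 of -0.35. Ndufb2 was the 1 member higher by over 1.5-fold, at 15.7 ± 17.6 and 25.8 ± 30.3 CPM. At this low level, with 57.3% of pairs higher, its difference was within the spread over cells. Ndufa4, named for complex I but known as a subunit of complex IV, was at 677 ± 160 and 627 ± 213 CPM (-0.11).

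Complexes I, III, IV and V varied together over the cells of a group, and complex II did so less in each group. Pearson's r between log2 sums of complexes I and IV was 0.799 in P14_WT IHC (n = 55), 0.848 in P14_iOHC (n = 46) and 0.914 in P30_WT IHC (n = 50). Between complexes I and II it was 0.131, 0.054 and 0.607. Spearman's rho between complexes I and II was lower, at -0.037, 0.031 and 0.347 in the same order. Sums of 1 cell share its total, so these values are descriptions, and no difference between groups was tested.

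The subunits encoded in the mitochondrial genome went the other way between postnatal days 14 and 30. Of 13, 11 passed the level filter, all 11 had a higher mean in P30_WT IHC, with a median log2 ratio of 0.50, and 3 were past 1.5-fold. The highest were mt-Nd2 (8539 and 4154 CPM, log2 ratio 1.04) and mt-Nd3 (0.96), both of complex I, and the lowest were mt-Co2 (0.12) and mt-Nd1 (0.32). The ratio of the mitochondrial to the nuclear sum had a median of 1.21 in P14_WT IHC (lowest 0.322, highest 5.08), 1.38 in P14_iOHC (0.779 and 2.65) and 2.06 in P30_WT IHC (1.23 and 34). It was higher in P30_WT IHC in 82.8% of pairs. The mitochondrial share of counts was 9.35% ± 4.94 in P30_WT IHC and 6.54% ± 3.24 in P14_WT IHC, and across P30_WT IHCs it ran against the summed nuclear members (Spearman's rho -0.567). The summed nuclear members also followed total counts there (rho 0.536), and 23 of the 50 cells were in the lower set of totals. The relation was not separated from depth. Leaving mitochondrial genes out of the totals gave a summed ratio of 0.811 for the members in place of 0.792, DESeq2 size factors (poscounts) gave 1.01, and the part of the mitochondrial share in the lower nuclear level was not tested. In P14_iOHC the median log2 ratio of the 11 was 0.07, with mt-Co3 (1.09) and mt-Atp6 (1.00) highest, both at low CPM, and mt-Nd5 (-0.39) lowest.

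Other genes of the pathway were taken from lists. Their counts past 1.5-fold stand beside the 17.3% of all genes that were lower and 12.6% that were higher in P30_WT IHC, and beside 19.3% and 21.9% in P14_iOHC. Of 11 electron carriers and complex-associated genes that the symbol rule missed, 9 had a lower mean in P30_WT IHC and 2 were past 1.5-fold, with cytochrome c1 (Cyc1) at 334 CPM in P14_WT IHC and 181 CPM in P30_WT IHC. In P14_iOHC 7 of the 11 were lower, 2 by over 1.5-fold (Etfdh and Cyc1, log2 ratios -0.73 and -0.59), and 1 was higher (Dmac2, 0.73). Of 13 ADP/ATP carriers, porins, import and membrane-shaping genes, 12 had a lower mean in P30_WT IHC, 4 by over 1.5-fold. The ADP/ATP carriers led them, with Slc25a5 at 950 and 506 CPM and Slc25a4 at 1342 and 768 CPM. In P14_iOHC 1 of the 13 was lower by that fold (Tomm20, log2 ratio -0.67).

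Of 16 citric acid cycle and pyruvate dehydrogenase genes, 14 had a lower mean in P30_WT IHC and 6 were past 1.5-fold, led by Pdhx (log2 ratio -1.07) and Idh3b (-0.83). In P14_iOHC 4 were lower (Pdhx, -0.76, and Idh3a, -0.75, the lowest) and 1, Suclg1 (0.71), was higher by that fold. Of 17 glycolysis genes, 5 were lower and none higher by that fold in P30_WT IHC, with Eno2 (-3.48) and Eno1 (-1.45) lowest. In P14_iOHC 6 were higher and 3 lower: Pfkp (2.64) and Ldhb (2.60, 112 CPM in P14_WT IHC and 680 CPM in P14_iOHC) were highest, and Eno2 (-1.92) and Pkm (-0.89) lowest. Ldhb encodes the lactate dehydrogenase subunit common in oxidative tissue.

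Assembly factors and the genes that make or regulate mitochondria did not move as 1 block. Of 14 complex I assembly factors, 7 were higher and 7 lower in P30_WT IHC, with Ndufaf8 (log2 ratio 1.03) highest and Tmem186 (-1.70) lowest, and in P14_iOHC 4 were higher by over 1.5-fold and 0 lower, with Ndufaf5 (1.36) highest. Of 25 assembly factors of the other complexes, 2 were higher and 2 lower by that fold in P14_iOHC and 0 and 2 in P30_WT IHC. Cox11, a copper chaperone for complex IV, was at 53.4 CPM in P14_WT IHC, 9.69 CPM in P14_iOHC and 22.6 CPM in P30_WT IHC. Of 29 mitochondrial ribosome genes, 5 were lower and 1 higher by that fold in P14_iOHC, where Mrps6 stood apart (414 and 34.1 CPM), and 3 were lower and 1 higher in P30_WT IHC. Of 10 genes for transcription, replication and biogenesis, 2 were higher and 1 lower by that fold in P14_iOHC and 3 higher and 2 lower in P30_WT IHC. Gabpb1, a subunit of the ETS-type factor NRF-2, had log2 ratios of 1.30 in P14_iOHC and 1.11 in P30_WT IHC, and the mitochondrial helicase Twnk of -1.47 and -1.65, all over the same P14_WT IHCs.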

How the data were processed

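Single Tdtomato+ cells were sequenced with Smart-Seq HT and paired-end reads, without molecular identifiers. Per the submitters' notes and the study's methods, the authors used Trimmomatic 0.39, aligned to GRCm38 (mm10) with HISAT2 2.1.0 and deposited raw read counts per gene from HTSeq 0.10.0; FastQC 0.11.9 and StringTie 1.3.5 are also listed. The annotation release, the strand setting and the treatment of reads with several matches are not given in the sources used here. Of 76 members compared, 25 share exon bases with a gene on the other strand and 9 have a near-identical sequence (at least 95% over 150 bases) at 10 CPM or more elsewhere, so reads could be split or shared.

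From the deposited counts, CPM (count over the cell's total, per 1000000) and TPM (union exon lengths, GENCODE M21, with BLAST 2.17.0 for copies) were computed with Python 3.11.15, numpy 2.4.6 and pandas 2.3.3. Totals were 4326416 to 25035444 counts per cell, at which 3 counts correspond to 0.120 to 0.693 CPM, and precision rests on the spread over cells. Group values are means of CPM over cells. Differences are log2 ratios of these means, counts past 1.5-fold, and the percent of pairs of cells in which 1 group is higher (75% or more counted as separated). The study tested cells with DESeq2; since no animals are named, no test was made here and p-values are not given. The ratio script was tested on simulated data. Scaling by edgeR 4.0.16 (TMM) and DESeq2 1.42.0 (poscounts, R 4.3.3), other totals, filters and subsets of cells were tried as alternatives.

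The members, gene lists and markers were chosen with earlier results of these data known. Genes named are the 6 highest and 6 lowest log2 ratios per comparison, isoform families, complex II, the 2 highest TPM per complex, set core subunits, and the 2 highest and 2 lowest of each other list; genes outside this rule are marked, and 1 gene of the rule is not reported here. Promoter windows came from RefSeq (GRCm38.p6), the first listed for genes with several.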

Additional observations from a re-analysis of the deposited data

How the results depend on the processing

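No paired analysis was possible because the results come from no test and a cell's number is only a name. In all, 14 alternatives were planned, and leaving out cells with fewer detected genes than any P14_WT IHC was added after seeing the data. Shares of all genes under the same settings are not given in this section, so its counts of members are not read against a background. For P14_iOHC, members higher by over 1.5-fold numbered 4, but 7 with poscounts size factors, 0 at 2-fold, 7 with a filter of 5 counts in 10 cells and 9 without a filter. Those lower numbered 0, but 3 from medians over cells, 1 without a filter, 3 in the lower and 1 in the upper set of totals, and 2 without cells over 3 median absolute deviations. Separated members numbered 5 higher, but 3 with poscounts, and 7 lower, but 4 with TMM, 0 with poscounts, 4 in the lower set of totals and 2 without cells of high supporting-cell score. Summed ratios with poscounts were 1.12 for all members, 1.20 for complex I and 1.05 for complex V.

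For P30_WT IHC, members higher numbered 1, but 0 at 2-fold, with a filter of 100 CPM and in the lower set of totals, and 2 without a filter. Those lower numbered 14, but 1 with poscounts, 1 at 2-fold and 27 in the lower set of totals. Separated members numbered 0 higher, but 2 in the upper set of totals, and 17 lower, but 2 with poscounts and 28 in the lower set of totals. With poscounts the median log2 ratio of the members was 0.021 in place of -0.32, and the summed ratios were 1.01 for all members, 1.07 for complex I, 0.942 for complex III, 1.05 for complex IV and 0.948 for complex V. That method moved the median of all genes by over 0.3 on the log2 scale; the cause was not tested. Of 231 alternative values for the named genes in each comparison, none that was past 1.5-fold changed direction. Of those for P14_iOHC, 213 kept their side of 1.5-fold, 2 lost it and 16 gained it, and of those for P30_WT IHC 208, 16 and 7 did. Depth bears on these counts, since cells with lower and with higher totals gave different ones, and the number of mice is not known.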

Other observations

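The genes with the highest Spearman's rho with Ndufb4 over the 46 P14_iOHCs were, after Ocm (0.808), Selenow (0.736), Stard10 (0.692), Atp5md (0.684) and Dnajc6 (0.684), out of 8752 genes past the level filter that varied over these cells. Atp5md is a small ATP synthase subunit. Of the first 15, Atp5md, Cox8a (0.647), Ndufa1 (0.635) and Uqcr11 (0.630) are themselves members, and Lbh (0.642) is an OHC marker. These genes were chosen by their values and carry no test.

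Of the members higher in P14_iOHC, Ndufb4 and Ndufa8 had a Spearman's rho of 0.471 across P14_iOHCs, -0.034 across P14_WT IHCs and 0.394 across P30_WT IHCs. Between Ndufb4 and Ndufa5 it was 0.421, 0.346 and 0.153 in the same order. The 6 members lowest in P30_WT IHC were all below the P14_WT IHC median in 24 of 50 P30_WT IHCs, 3 of 55 P14_WT IHCs and 5 of 46 P14_iOHCs, and at least 4 of the 6 were below it in 47, 19 and 30 cells. These 6 were chosen by their log2 ratios between the same P30_WT IHCs and P14_WT IHCs. The high counts in P30_WT IHC therefore follow from the choice and are a description only.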
